A study of Mus musculus with 16 samples.

Results

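Respiratory complex I was examined at the level of its mRNAs in skeletal muscle. Its genes were taken as all rows of the deposited mRNA table whose gene name starts with Nduf or mt-Nd, and the counts of the transcripts of each name were summed. This gave 54 genes out of 23235 gene names, of which 47 are nuclear and 7 are mitochondrial. A gene was tested if it had a mean of 10 or more counts over the 16 mice. All 54 genes passed that minimum, as did 14869 gene names in all. The list holds 36 accepted nuclear subunits (7 core and 29 accessory), 8 assembly factors, the gene Ndufa4 with its paralogue Ndufa4l2, and the processed pseudogene Ndufab1-ps, which is not a subunit.

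The mice were male C57BL/6 animals (C57BL/6J in the growth notes) bought at 6 weeks of age, 4 in each of 4 groups. The control group received a normal diet. The HFD group received a diet with 60% fat for 8 weeks. The HFD + RSV group and the HFD + metformin group had the same 8 weeks of HFD and then 6 weeks of resveratrol (RSV) or of metformin. The sources do not say which muscle was taken, nor whether HFD went on during treatment. Some animals of the study were given insulin shortly before tissue was taken, and it is not stated whether these were the sequenced ones. The names of the 4 HFD mice share a leading number that no other group has, so a cage or batch with that number and the diet cannot be told apart. Replicates are separate mice.

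Complex I takes electrons from NADH, passes them to ubiquinone and pumps protons across the inner mitochondrial membrane. Its core subunits are encoded partly in the nucleus and partly in mitochondrial DNA, where the mt-Nd genes form part of the membrane arm. The accessory subunits surround this core, and the assembly factors help to build the complex without staying in it. Muscle depends on it for oxidative ATP production. Metformin is known as an inhibitor of the complex I enzyme, and the comparisons below concern mRNA only.

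The libraries held 20281801 to 34021101 counts per mouse over both deposited tables. The 7 markers of skeletal muscle (Acta1, Ckm and others) summed to 53769.6 to 107421 CPM (counts scaled to library size with TMM factors) in every mouse. The labels mention retinas in the extraction notes, and the 5 retina markers found in the table summed to at most 1.45 CPM. Ucp1, the defining gene of brown fat, was at 409 CPM in control mouse 3, 90.1 CPM in HFD + metformin mouse 3 and 39.9 CPM in control mouse 2, and at most 11.9 CPM elsewhere. The 8 markers of adipocytes in general summed to 1062 to 4785 CPM in control mice and to 213 to 1050.2 CPM in HFD mice, so these groups did not overlap. The 7 slow fibre markers summed to 93.7 to 2317 CPM in control mice and 97.9 to 270 CPM in HFD mice. In HFD + RSV and HFD + metformin mice, the adipocyte sums were 308 to 1229.8 CPM and 216 to 4459 CPM, and the slow fibre sums 116 to 1371 CPM and 199 to 504 CPM. The 5 blood markers summed to 357 to 882 CPM in control, 361 to 476 CPM in HFD, 508 to 1344 CPM in HFD + RSV and 499 to 1396 CPM in HFD + metformin, so each treated mouse was above each HFD mouse. At an unadjusted P under 0.05, 5 of 5 blood markers were higher in HFD + metformin than in HFD, beside 8.09% of all genes in either direction. In HFD + RSV against HFD, 4 of 5 blood, 5 of 7 slow fibre and 4 of 5 Schwann cell markers were higher, beside 4.78% of all genes. In HFD against control, 5 of 9 fast fibre markers were higher and 7 of 7 slow fibre markers lower, beside 24.4% of all genes. Also lower were 4 of 6 brown adipocyte, 4 of 8 general adipocyte, 3 of 5 endothelial and 3 of 5 Schwann cell markers. Of the brown adipocyte markers, 2 passed an adjusted P of 0.05 in edgeR. The part of these differences in the results that follow was not tested, other than by leaving out the mice with most Ucp1. In bulk tissue, fewer cells of a type and less RNA per cell cannot be told apart.

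Levels between genes were compared per length, as FPKM summed over the transcripts of a gene (mean ± SD over the 16 mice). The mitochondrial genes were the most abundant, from mt-Nd2 at 658 ± 142 FPKM to mt-Nd1 at 2068 ± 411 FPKM. The lowest of the nuclear genes was Ndufaf2, an assembly factor, at 2.38 ± 0.396 FPKM. Ndufb9, a subunit of the distal membrane arm named after its values were seen, was at 228 ± 27.3 FPKM. The lowest mt-Nd2 value of any mouse (360 FPKM) was above the highest Ndufb9 value (274 FPKM).

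The median levels differed between the roles of the genes, while single genes of different roles overlapped. The 7 core nuclear subunits had a median of 123 FPKM. The medians were 66.2 FPKM for the 10 accessory subunits of the matrix arm, 60.4 FPKM for the 9 of the proximal membrane arm and 88.0 FPKM for the 10 of the distal membrane arm. The 8 assembly factors had a median of 6.78 FPKM, and the highest of them, Ndufaf1, reached 16.5 FPKM. Ndufa4, once assigned to complex I and now known as a subunit of complex IV, was at 143 ± 17.2 FPKM, whereas Ndufa4l2, its paralogue known from hypoxia, was at 3.71 ± 0.765 FPKM. Ndufb4, at 5.48 ± 0.933 FPKM, was the lowest subunit and lay below the median of the assembly factors. Ndufab1-ps was at 43.4 ± 5.88 FPKM beside 29.3 ± 4.54 FPKM for Ndufab1. Near-identical copies can divide reads, so the levels of Ndufab1 and Ndufab1-ps are uncertain.

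**Figure D1:**
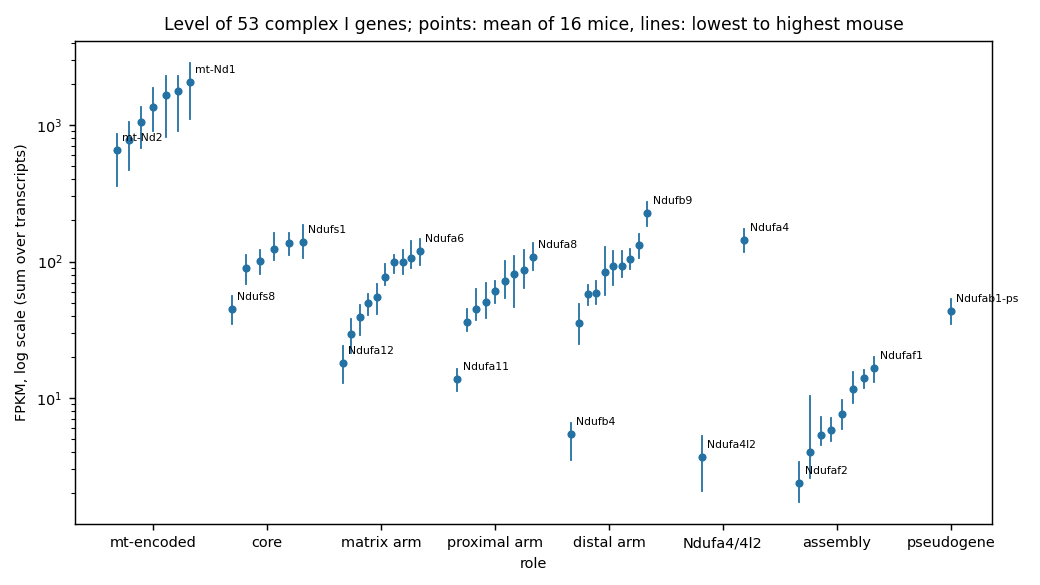
FPKM of 53 complex I genes on a log axis, grouped by role, with points for the mean of the 16 mice and lines from the lowest to the highest mouse. The 7 mt-Nd genes lie at 658 to 2068 FPKM and the assembly factors at 2.38 to 16.5 FPKM.

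The nuclear members lie on many chromosomes but share features at their starts. Of the 46 protein-coding nuclear members, 21 (45.7%) have the annotated start of a protein-coding gene on the opposite strand within 1000 bases of their own start, against 10.9% of the 21938 protein-coding genes of GENCODE M21. Such pairs include Ndufs3 with Kbtbd4 (87 bases apart), Ndufaf5 with Esf1 (85 bases) and Ndufs6 with Mrpl36 (29 bases). The sources do not say whether counting used strand, and without strand the reads of overlapping opposite genes cannot be told apart.

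Promoter windows of 300 bases (250 before and 50 after the start) were taken from RefSeq on GRCm38.p6, and 40 nuclear members had one. They were searched on both strands for the letters of 4 motifs of factors known to act on respiratory genes. The NRF1 letters GCGCANGCG were in the windows of 10 members (25.0%), against 7.03% of all 27025 genes with a window and 10% of the protein-coding ones. The YY1 letters AAGATGGC were in 8 (20.0%), against 3.19% and 3.64%. The ETS letters CCGGAAG, bound by GABPA, were in 6 (15%), against 9.93% and 13.4%. The letters TCAAGGTCA of the estrogen-related receptors were in none, against 0.466% and 0.387%. At least 1 of these motifs was in 22 members (55.0%), against 18.2% and 23.8%. A match describes letters in a window and does not show binding. The 250 bases before the RefSeq start are shown for 4 members that the results below name and that hold a match there, with the matched letters in capitals. They are Ndufs3, a core subunit (chr2:90904722-90904971, minus strand, ETS), Ndufs5, an accessory subunit (chr4:123718187-123718436, minus strand, NRF1), Ndufaf4, the gene with the largest log2FC (chr4:24897833-24898082, plus strand, NRF1 on both strands with overlap), and Ndufaf8, an assembly factor (chr11:120098684-120098933, plus strand, ETS). The GENCODE M21 starts of Ndufs3 (90904827), Ndufs5 (123718202) and Ndufaf8 (120098928) lie inside these windows. The Ndufs3 match is within the first M21 exon, the Ndufs5 match lies before the M21 start, and the Ndufaf8 match spans the M21 start.
Ndufs3: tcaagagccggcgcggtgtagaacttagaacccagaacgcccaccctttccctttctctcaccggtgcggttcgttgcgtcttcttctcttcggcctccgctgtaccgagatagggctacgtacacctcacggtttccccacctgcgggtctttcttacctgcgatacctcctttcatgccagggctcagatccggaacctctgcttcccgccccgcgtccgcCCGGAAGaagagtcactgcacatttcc
Ndufs5: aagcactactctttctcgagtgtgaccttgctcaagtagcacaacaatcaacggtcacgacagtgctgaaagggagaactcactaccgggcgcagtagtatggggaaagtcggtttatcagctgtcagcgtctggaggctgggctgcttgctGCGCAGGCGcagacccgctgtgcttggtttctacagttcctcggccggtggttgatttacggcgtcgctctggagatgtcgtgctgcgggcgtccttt
Ndufaf4: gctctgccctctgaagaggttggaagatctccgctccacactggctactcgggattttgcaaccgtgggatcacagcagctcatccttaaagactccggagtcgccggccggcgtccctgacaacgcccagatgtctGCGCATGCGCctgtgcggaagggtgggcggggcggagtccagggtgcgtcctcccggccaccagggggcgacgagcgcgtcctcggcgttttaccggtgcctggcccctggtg
Ndufaf8: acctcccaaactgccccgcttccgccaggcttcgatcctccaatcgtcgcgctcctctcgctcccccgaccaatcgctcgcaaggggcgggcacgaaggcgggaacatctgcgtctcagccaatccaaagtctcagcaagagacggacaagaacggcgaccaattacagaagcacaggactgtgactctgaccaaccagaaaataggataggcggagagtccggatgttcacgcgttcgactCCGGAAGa

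The first comparison asked whether complex I mRNAs differed between HFD and control muscle. None of the 54 genes passed an adjusted P of 0.05 in edgeR's quasi-likelihood test, where 2.57% of all genes tested passed. At an unadjusted P under 0.05 there were 4 of 47 nuclear genes, all with higher values in HFD, and 0 of 7 mitochondrial genes, beside 24.4% of all genes (11.8% with higher values in HFD). The median log2FC was 0.08 over the nuclear genes and 0.01 over the mitochondrial genes, beside −0.02 over all genes. The value was positive in 35 nuclear genes and negative in 12. The 95% interval lay within −0.5 and 0.5 in 32 of the 47 nuclear genes and within −1 and 1 in 46, the exception being Ndufaf4.

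The 2 nuclear genes with the smallest P were Ndufaf5 and Ndufa13. Ndufaf5, an assembly factor that modifies the core subunit Ndufs7, was at 16.8, 16.9, 14.4 and 15 CPM in control mice and 22.4, 23.0, 19.1 and 20.7 CPM in HFD mice (log2FC 0.43, SE 0.13, adjusted P = 0.0723 in edgeR). Each HFD mouse was above each control mouse. Ndufa13, a membrane arm accessory subunit also known as GRIM-19, was at 61.4, 59.0, 50.3 and 55.5 CPM in control and 76.7, 70.6, 70.9 and 88.7 CPM in HFD (log2FC 0.44, SE 0.13, adjusted P = 0.0731 in edgeR). Here too the groups did not overlap. An exon of Tssk6 overlaps Ndufa13 on the opposite strand. Both passed at an adjusted P of 0.0226 and 0.0225 with DESeq2, and at 0.0347 and 0.0405 when edgeR was fitted to these 2 groups only. Those 2 fits put 25.8% and 28.2% of all genes at an unadjusted P under 0.05. Over the 24 alternatives the adjusted P of Ndufaf5 and Ndufa13 ranged from 0.0226 to 0.201 and from 0.0225 to 0.21.

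Ndufaf8, known to stabilise Ndufaf5, was at 5.17, 5.25, 6.77 and 6.51 CPM in control and 6.53, 6.48, 8.04 and 8.22 CPM in HFD (log2FC 0.30, SE 0.13, adjusted P = 0.166 in edgeR). Ndufc1, a small subunit of the membrane arm, was at 56.4, 59.1, 55.1 and 55.3 CPM in control and 64.1, 79.2, 84.5 and 53.5 CPM in HFD (log2FC 0.32, SE 0.13, adjusted P = 0.163 in edgeR). HFD mouse 4 was below all controls for Ndufc1. The groups did not overlap in 3 of the 54 genes (Ndufaf5, Ndufa13 and Ndufa2, the last named after its values were seen), beside 18.6% of all genes in either direction.

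By role, the 8 assembly factors had the largest median in this comparison (0.21, 7 of 8 positive). The 7 core subunits had positive values from 0.02 (Ndufv1, the NADH-binding flavoprotein) to 0.24 (Ndufs7, which carries the last iron-sulfur cluster of the chain), and the lowest adjusted P among them was 0.295 in edgeR. Ndufs1, which carries iron-sulfur clusters of the NADH module, was at 283 to 447 CPM over the 16 mice, and Ndufv2, its neighbour in that module, at 140 to 230 CPM, each with a log2FC of 0.08. The medians of the 10 matrix arm, 9 proximal and 10 distal membrane arm accessory subunits were 0.05, 0.12 and 0.07. On the negative side the smallest P values belonged to Ndufa10 (log2FC −0.14), Ndufv3 (−0.12), Ndufab1 (−0.13) and Ndufs4 (−0.07), with an adjusted P of 0.578 or more in edgeR. These sizes depend on the scaling: as a plain share of the mRNA counts, the nuclear members held 0.377% ± 0.0416 in control and 0.354% ± 0.0158 in HFD (SD, n = 4), whereas the TMM-scaled medians lay slightly the other way.

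**Figure D2:**
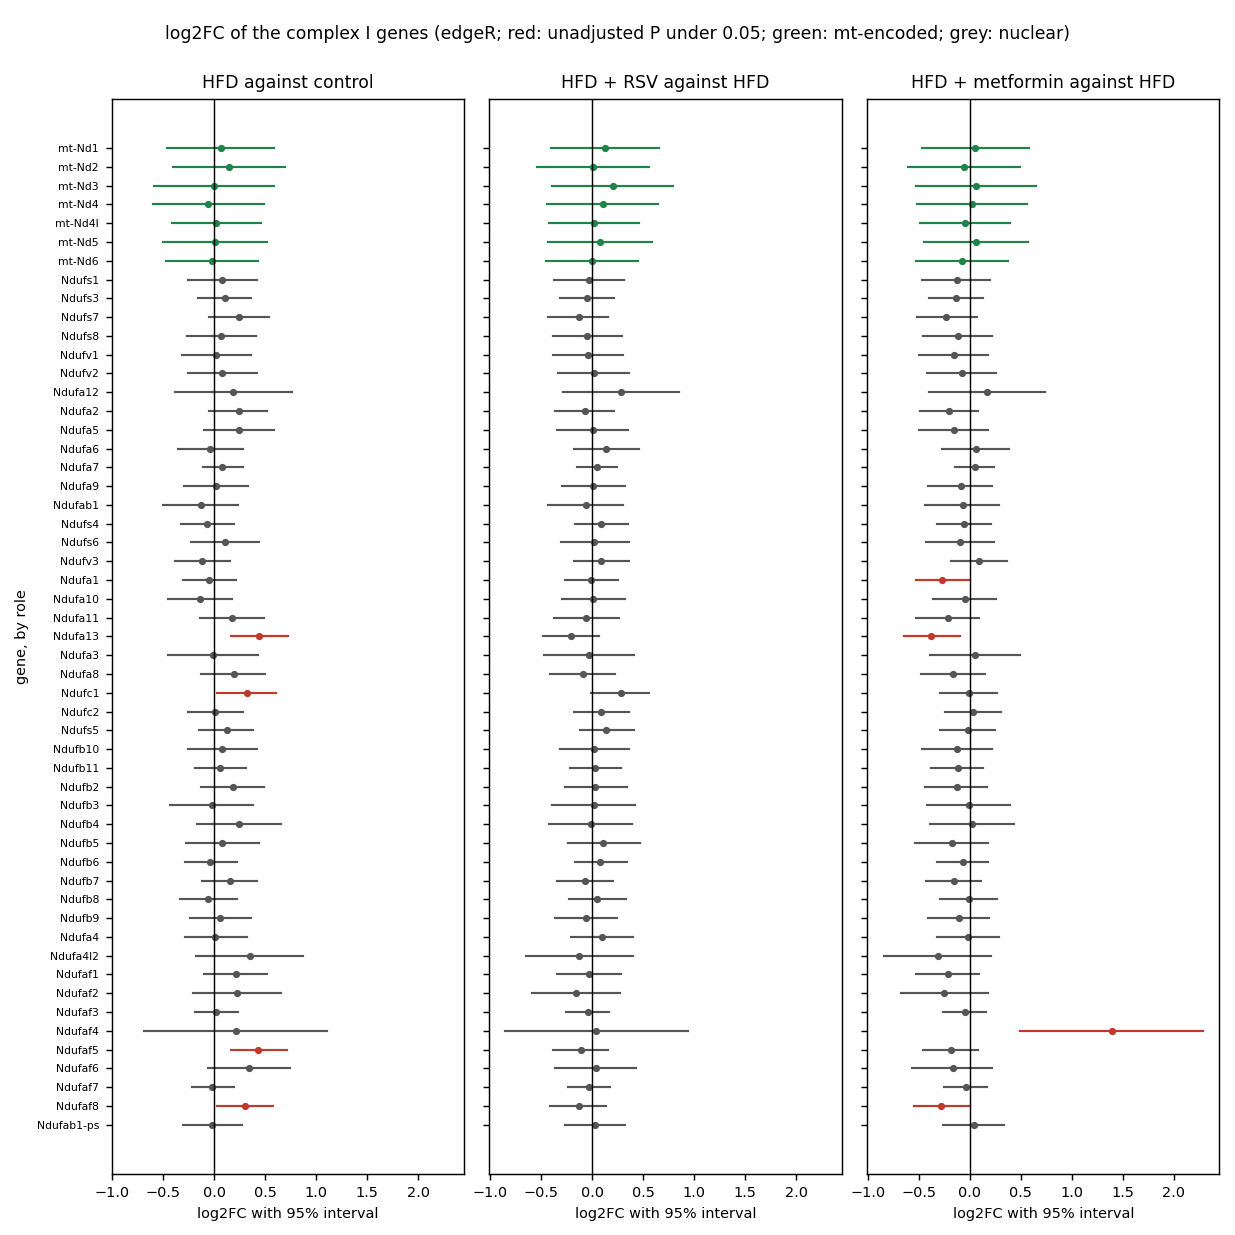
log2FC of 53 complex I genes with the 95% interval in HFD against control, HFD + RSV against HFD and HFD + metformin against HFD (edgeR, 4 mice per group). Genes at an unadjusted P under 0.05 are red, the other mt-Nd genes green and the other nuclear genes grey. The point of Ndufaf4 in the metformin panel, at 1.39, stands apart.

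The mitochondrial subunits were compared apart, since mitochondrial transcripts are made by their own polymerase from long precursors. In HFD against control, log2FC ranged from −0.06 (mt-Nd4) to 0.14 (mt-Nd2), with adjusted P from 0.778 to 0.996 in edgeR. The SE had a median of 0.25, against 0.14 over the nuclear genes, and only 2 of 7 intervals lay within −0.5 and 0.5. mt-Nd1 was at 2233, 2500, 1827 and 2014 CPM in control and 2745, 2796, 2232 and 1200.1 CPM in HFD. Thus 3 HFD mice lay within or above the control range, and HFD mouse 4 lay below every other mouse of the study. It had the lowest value of the 16 mice in 6 of the 7 mt-Nd genes, as in mt-Nd4l (228 CPM, and 288 to 469 CPM in the other mice). In mt-Nd6, the only one of the 7 encoded on the opposite strand, HFD + metformin mouse 1 was lowest (525 CPM) and HFD mouse 4 was at 636 CPM. mt-Nd6 overlaps mt-Nd5 on the opposite strand and mt-Nd4l overlaps mt-Nd4, so their counts may share reads.

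RSV was then compared with HFD alone. This comparison and the next use the same HFD mice as the first. None of the 54 genes passed an adjusted P of 0.05 in edgeR, where 0.0% of all genes passed, and none was at an unadjusted P under 0.05, where 4.78% of all genes were. DESeq2 also called 0. The median log2FC was 0.01 over the nuclear genes (25 positive, 22 negative) and 0.08 over the mitochondrial genes, with 42 of 47 nuclear intervals within −0.5 and 0.5. The smallest P was that of Ndufc1, at 99.5, 91.7, 78.0 and 71.7 CPM in HFD + RSV (log2FC 0.28, SE 0.13, adjusted P = 1.0 in edgeR). Further genes with positive values were Ndufs5 (0.14), Ndufa12 (0.28) and Ndufa6 (0.14). The negative values with the smallest P were those of Ndufa13 (−0.21), Ndufaf8 (−0.13), Ndufs7 (−0.13) and Ndufaf5 (−0.11). The adjusted P was 1.0 for all 8 in edgeR. The 7 core subunits had a median of −0.04, with 5 negative values. Among the mitochondrial genes mt-Nd3 had the largest value (0.20, SE 0.28) and mt-Nd6 the smallest (0.00, SE 0.21). In this comparison 4.22% of all genes, and none of the 54, had groups that did not overlap.

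Metformin was compared with HFD alone in the same way. No complex I gene passed an adjusted P of 0.05 in edgeR against HFD, where 0.0135% of all genes passed, and DESeq2 called 0. At an unadjusted P under 0.05 there were 4 nuclear genes (8.09% of all genes), 1 higher (5.25% of all genes) and 3 lower (2.84% of all genes), and no mitochondrial gene. The median log2FC was −0.10 over the nuclear genes, with 37 of 47 negative, and 0.02 over the mitochondrial genes. Mouse 2 had the highest and mouse 1 the lowest nuclear levels of the HFD + metformin group, as described below. Without mouse 2, 1 nuclear gene was higher and 11 were lower at an unadjusted P under 0.05, beside 12.2% of all genes in either direction. The nuclear median was then −0.23, and the number called stayed at 0. Without mouse 1, 1 was higher and 1 lower, beside 7.24% of all genes in either direction. The nuclear median was then −0.03, and the number called was again 0. None of the 54 genes had groups that did not overlap, beside 3.71% of all genes.

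Ndufaf4, an assembly factor that acts with Ndufaf3 on early assembly intermediates, had the largest log2FC (1.39, SE 0.42, adjusted P = 0.569 in edgeR). It was at 29.6, 8.60, 5.71 and 35.4 CPM in HFD + metformin mice and at 8.30, 8.26, 7.47 and 6.11 CPM in HFD mice. HFD + metformin mice 1 and 4 were high, and mice 2 and 3 lay at or near the range of the other groups, 5.73 to 8.30 CPM. Without mouse 4 the log2FC was 0.95, without mouse 1 it was 1.14, and without mouse 3 it was 1.70. Ndufa13 was at 53.3, 75.5, 50.9 and 56.9 CPM in HFD + metformin (log2FC −0.38, SE 0.13, adjusted P = 0.595 in edgeR), where mouse 2 lay within the HFD range and the others below it. Ndufa1, a membrane arm subunit, was at 29.4, 27.0, 31.0 and 31.6 CPM against 39.1, 39.0, 37.2 and 28.2 CPM in HFD (log2FC −0.27, SE 0.12, adjusted P = 0.613 in edgeR). Ndufaf8 was at 5.78, 6.58, 5.54 and 6.25 CPM (log2FC −0.28, SE 0.13, adjusted P = 0.613 in edgeR). Of the other genes, Ndufs7 had −0.23, and Ndufa12, Ndufv3 and Ndufa7 had 0.17, 0.09 and 0.05. Ndufa4 had −0.02 and Ndufa4l2 −0.31 (SE 0.25). The mitochondrial genes ranged from −0.08 (mt-Nd6) to 0.06 (mt-Nd3 and mt-Nd5).

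Against control, the treated groups share their control mice with the first comparison, so the values are only set side by side. No complex I gene passed in edgeR in HFD + RSV against control (0.00673% of all genes passed; 16% at an unadjusted P under 0.05, and 2 nuclear genes), nor in HFD + metformin against control (0.0% passed; 9.56% unadjusted, and 3 nuclear genes). Ndufc1 had a log2FC of 0.32 in HFD, 0.59 in HFD + RSV and 0.31 in HFD + metformin, each against control. For Ndufc1, each of the 4 mice was above each control both in HFD + RSV and in HFD + metformin. Of all 14869 genes, 816 were above control without overlap and 893 below in HFD + RSV, and 294 and 233 in HFD + metformin. Ndufaf4 in HFD + RSV (above) and Ndufa1 in HFD + metformin (below) also did not overlap with control. The change of Ndufc1 in HFD + RSV against control did not pass in edgeR but did in DESeq2 (SE 0.13, adjusted P = 0.124 in edgeR and 0.00459 in DESeq2). Ndufaf4 had 1.60 in HFD + metformin against control (SE 0.42, adjusted P = 0.232 in edgeR and 0.0229 in DESeq2). Between the treatments, HFD + RSV against HFD + metformin, no gene passed in edgeR (0.0% of all genes passed; 4.71% unadjusted), the median log2FC was 0.09 over the nuclear genes, and the 3 genes at an unadjusted P under 0.05 were Ndufaf4 (−1.35), Ndufa1 (0.26) and Ndufc1 (0.29). DESeq2 called 0 there. Of the mitochondrial genes, none was at an unadjusted P under 0.05 in these 3 comparisons.

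**Figure D3:**
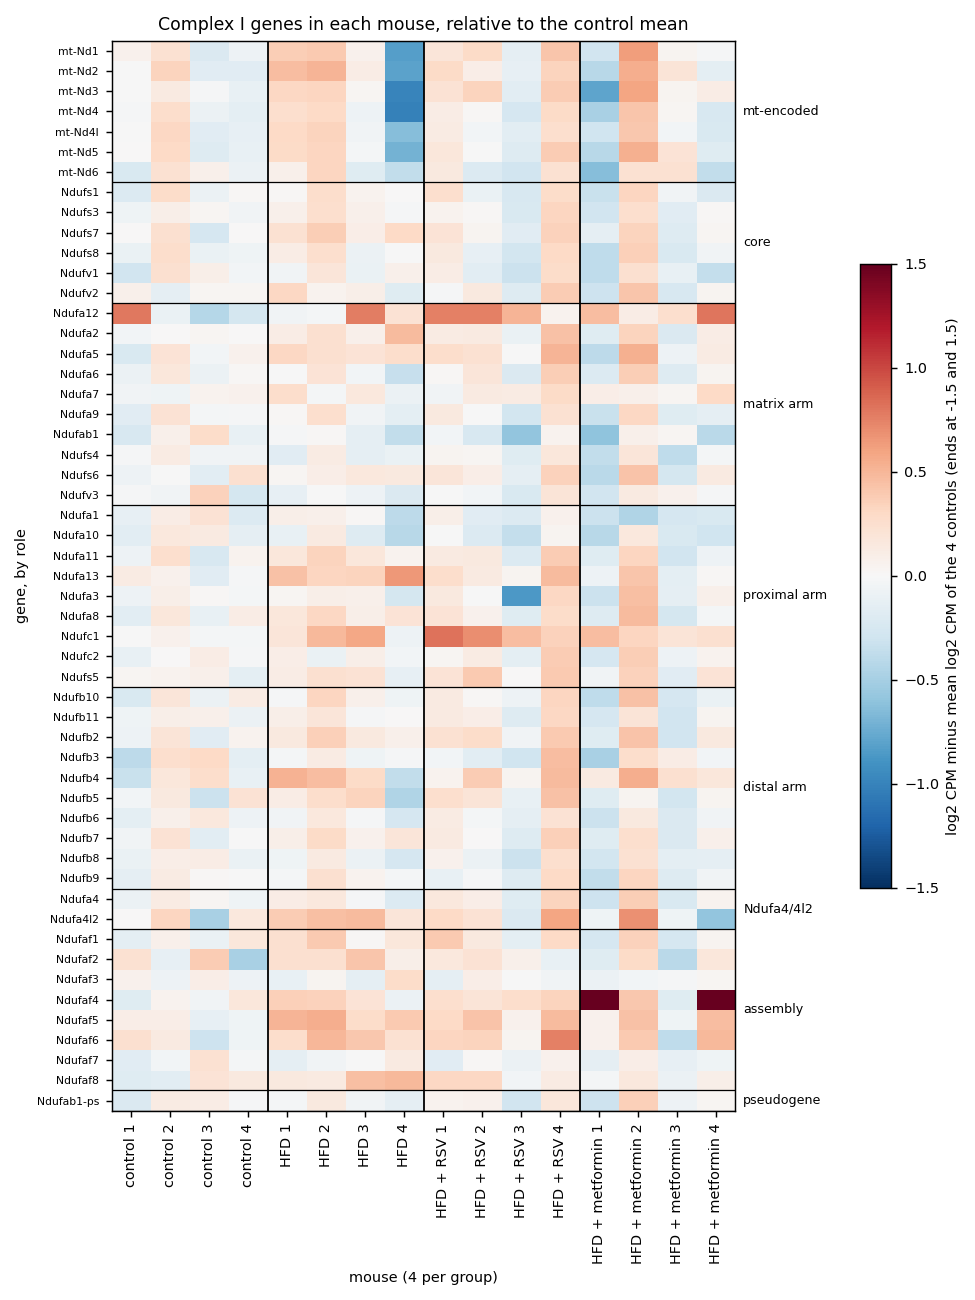
Colours give log2 CPM of 53 complex I genes (rows, by role) in each of the 16 mice (columns, by group), minus the mean of the 4 controls. Red columns in HFD + metformin mouse 2 and HFD + RSV mouse 4, the blue mt-Nd block in HFD mouse 4 and the 2 dark Ndufaf4 cells in HFD + metformin mice 1 and 4 stand out.

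Values differed between mice of a group, and many members shared these shifts. For each mouse the median over genes was taken of log2 CPM minus the gene's mean over the 16 mice. For the nuclear genes this was −0.03 ± 0.0829 in control, 0.055 ± 0.0889 in HFD, 0.0625 ± 0.198 in HFD + RSV and −0.0525 ± 0.237 in HFD + metformin (SD, n = 4). It was 0.29 in HFD + RSV mouse 4 and 0.26 in HFD + metformin mouse 2, where 42 of the 47 genes were above their mean in each. It was −0.26 and −0.21 in HFD + metformin mice 1 and 3, where 4 genes were above it in each. HFD mouse 2 (0.18) also had 42 genes above it. Adipoq, an adipocyte gene, was at 16.5, 3.67 and 11.2 CPM in HFD + RSV mouse 4, HFD + metformin mouse 2 and HFD mouse 2, and at 182, 356 and 112 CPM in HFD + metformin mice 1 and 3 and HFD + RSV mouse 3, where the nuclear median was low (−0.19 in the last). These mice lay at the 2 ends of the nuclear median. Between them, Adipoq was at 353 CPM in control mouse 3 (nuclear median −0.03) and 143 CPM in control mouse 4 (−0.05). It was at 68.0 CPM in HFD + RSV mouse 2 (0.05). The muscle gene Mb, named after its values were seen, was at 975, 1161 and 826 FPKM in HFD + RSV mouse 4, HFD + metformin mouse 2 and HFD mouse 2. It was at 389, 642 and 341 FPKM in HFD + metformin mice 1 and 3 and HFD + RSV mouse 3. Control mice 3 and 4 and HFD + RSV mouse 2 had 403, 1100.4 and 461 FPKM. The part of Adipoq or Mb in the shifts was not tested. The group ranges overlapped.

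For the mitochondrial genes the group values were −0.0125 ± 0.205, −0.07 ± 0.559, 0.0775 ± 0.226 and −0.025 ± 0.398 in the same order. The lowest mouse was HFD mouse 4 (−0.87) and the highest HFD + metformin mouse 2 (0.48). In HFD mouse 4 the nuclear median was −0.03, so the nuclear genes did not share its low mitochondrial values. In HFD + metformin mice 1 and 2 both sets lay on the same side. The mitochondrial genes of the list held 0.536% of the mRNA counts in HFD mouse 4 and 1.23% in HFD + metformin mouse 2.

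**Figure D4:**
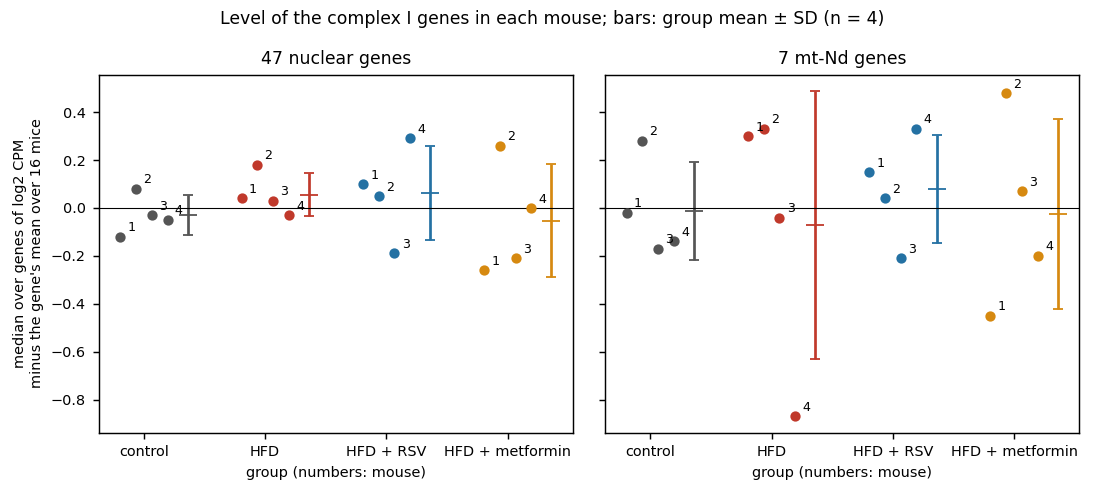
Median over the 47 nuclear genes (left) and over the 7 mt-Nd genes (right) of log2 CPM minus the gene's mean over 16 mice, one point per mouse with its number, and the group mean ± SD (n = 4). The groups overlap in both panels, and HFD mouse 4 lies at −0.87 on the right but at −0.03 on the left.

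Gene by gene, the pooled SD of log2 CPM within groups was 0.12 to 0.66 for the nuclear genes (median 0.21) and 0.31 to 0.44 for the mitochondrial genes (median 0.38). Over the 12336 genes tested with at least the mean CPM of the lowest member, the median SD was 0.21. That value was computed with a small constant added to CPM before the log, which the member values lack. The medians of members and of all genes are therefore not on the same measure. Ndufaf4 had the largest SD (0.66), and among the nuclear subunits Ndufa12, a matrix arm subunit that takes the place of Ndufaf2 late in assembly, had 0.40, with values from 11.7 to 27.5 CPM. In Ndufa12, control mouse 1 was at 27.2 CPM and the other controls at 11.7 to 14.6 CPM.

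The sum over a gene can hide transcripts that move apart, so the 157 transcripts of the 54 genes with a mean of 10 or more counts were tested one by one. None passed an adjusted P of 0.05 in edgeR against 0.0171% of all 40855 transcripts in HFD against control, 0.00245% in HFD + RSV against HFD and 0.0049% in HFD + metformin against HFD. At an unadjusted P under 0.05 there were 13, 4 and 10 of the 157, beside 13.7%, 5.21% and 6.4% of all transcripts. DESeq2 called 1 in the first comparison (the only transcript of Ndufa13, adjusted P = 0.0354) and 1 in the third (ENSMUST00000146721 of Ndufaf4, adjusted P = 0.0259).

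The transcripts described next were chosen after their values were seen. Ndufaf4 lies on the plus strand of chromosome 4 from 24898083 to 24905001 (GRCm38), and no exon of another gene of GENCODE M21 overlaps its exons. It has 3 annotated transcripts. ENSMUST00000146721, a non-coding transcript of 2 exons, had 269 and 511 counts in HFD + metformin mice 1 and 4 and 21 to 35 counts in the other 14 mice. The coding transcript ENSMUST00000029925 had 269 and 474 counts in these 2 mice and 50 to 184 in the others. ENSMUST00000151249, a coding transcript of 4 exons, had 0 counts in both and 16 to 43 in the others. The same 2 mice thus stood apart in all 3 transcripts, with 50% and 51.9% of the gene's counts on ENSMUST00000146721 against 9.57% to 26.5% elsewhere.

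In Ndufs3, whose gene values were 87.5 to 134 CPM, the non-coding ENSMUST00000152059 had 635 to 853 counts in 6 mice (control mice 1, 3 and 4, HFD mouse 4, HFD + RSV mice 2 and 3) and 127 to 195 in the other 10. This split crossed the groups. StringTie divides reads among overlapping transcripts, and the part of that step in the split was not tested.

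**Figure D5:**
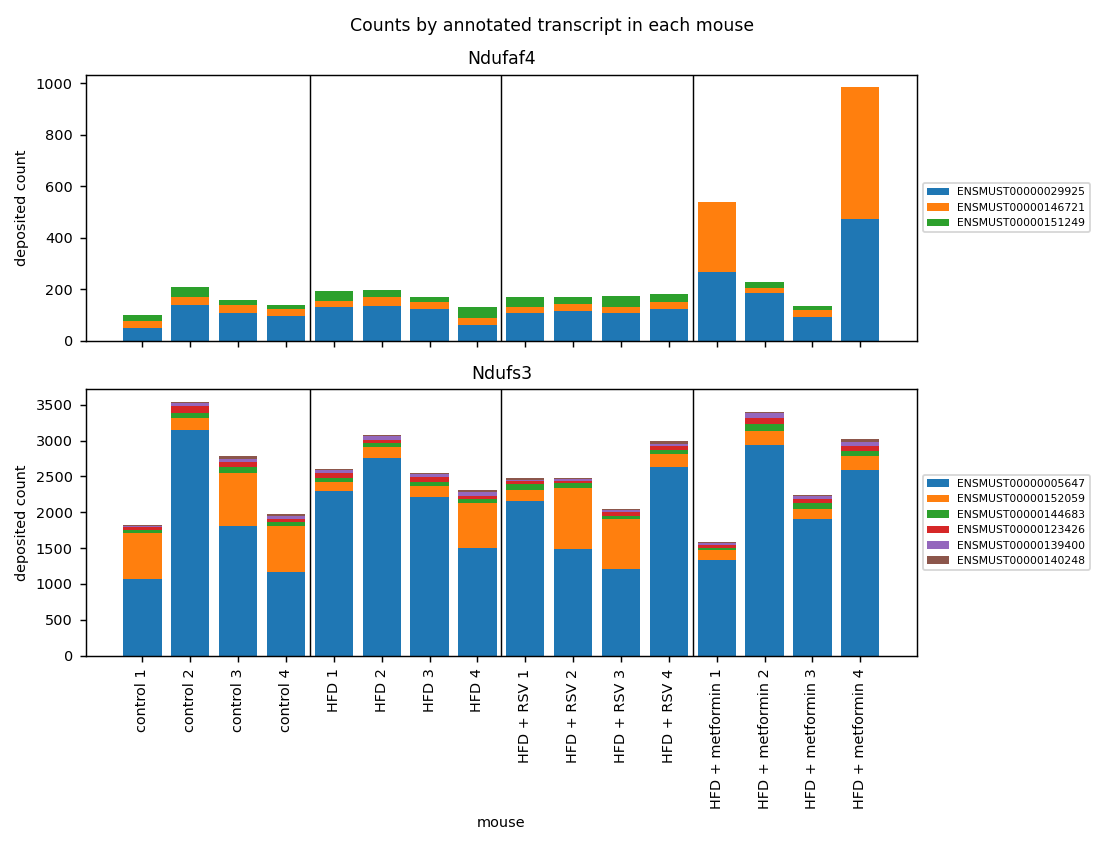
Deposited counts of Ndufaf4 (all 3 transcripts) and of the Ndufs3 transcripts with a mean of 10 or more counts, stacked by annotated transcript for each mouse. Ndufaf4 is high in HFD + metformin mice 1 and 4, and ENSMUST00000152059 takes 26.6% to 35% of the Ndufs3 bar in 6 mice and at most 7.99% in the others.

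Genes that work around complex I were counted from lists. Of 12 further assembly genes tested, 1 passed in HFD against control, where 2.57% of all genes did. At an unadjusted P under 0.05, Foxred1 (log2FC −0.50) and Aifm1 (−0.25) had lower values, with adjusted P of 0.118 and 0.18 in edgeR. The gene that passed was Tmem126b, a part of the complex that assembles the membrane arm, with 24.6, 23.5, 23.9 and 24.9 CPM in control and 36.1, 32.2, 31.1 and 35.2 CPM in HFD. Each HFD mouse was above each control (log2FC 0.47, SE 0.08, adjusted P = 0.017 in edgeR). The call was kept in 21 of 24 alternatives and lost without control mouse 2 (0.0597), control mouse 3 (0.0557) or HFD mouse 1 (0.0601). Its values were 29.1, 30.3, 28.9 and 32.4 CPM in HFD + RSV and 26.1, 32.1, 26.4 and 31.3 CPM in HFD + metformin, with an adjusted P of 1.0 and 0.611 against HFD. No gene of this list passed in those 2 comparisons.

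None of the 6 other mitochondrially encoded mRNAs, the 13 tested genes of mitochondrial transcription and RNA handling or the 12 regulators of respiratory genes passed in any of the first 3 comparisons in edgeR. At an unadjusted P under 0.05 in HFD against control there were 0, 1 and 3 of them, beside 24.4% of all genes. They were Hsd17b10, a subunit of mitochondrial RNase P (log2FC −0.53, SE 0.18, adjusted P = 0.0975 in edgeR), Ppara, a receptor that governs fatty acid oxidation genes (−1.42, SE 0.49, adjusted P = 0.104 in edgeR), Yy1 (0.19) and Ppard (0.23), all 4 named after their values were seen. In control mice Ppara was at 6.33, 17.0, 29.9 and 16.4 FPKM and Hsd17b10 at 24.7, 29.6, 50.9 and 35.5 FPKM. In HFD mice Ppara was at 5.44, 6.29, 4.65 and 5.49 FPKM and Hsd17b10 at 20.7, 20.1, 21.5 and 24.9 FPKM. Both were highest in control mouse 3, the mouse with most Ucp1. Ppargc1a, the coactivator of mitochondrial biogenesis, had log2FC of 0.25, −0.27 and −0.45 in HFD against control, HFD + RSV against HFD and HFD + metformin against HFD (SE 0.26 each). Esrra, its partner receptor, had 0.16, 0.00 and −0.11 (SE 0.17 each), and Tfam, which packages mitochondrial DNA, had 0.12, −0.09 and −0.47. The adjusted P of these 3 genes was 0.585 or more.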

How the data were processed

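Skeletal muscle RNA of 16 mice was sequenced after removal of ribosomal RNA. The submitters' processing notes name fastp, HISAT2 and GRCm38, and the study's methods name StringTie for counting. The authors deposited expected counts per transcript as whole numbers, without normalization. The authors also deposited FPKM values, which equal the count over length and over the total of both tables. Strand settings are not given in the sources used here. The labels name Trizol, the study's methods another kit.

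In the mRNA table, 4 transcripts split over 2 lines were joined, and counts were summed per gene name. Genes with a mean of 10 or more counts were fitted with edgeR 4.0.16 in R 4.3.3 (TMM, robust quasi-likelihood, all 16 mice in 1 fit, Benjamini-Hochberg over all 14869 genes). A gene was called at an adjusted P under 0.05. The fit was tested on simulated data. Alternatives were filterByExpr, no filter, DESeq2 1.42.0 size factors or test, the 2 groups alone, library sizes without mitochondrial genes, both tables together, an unadjusted P under 0.05 with an absolute log2FC above 1, and leaving out each mouse. Leaving out the 2 mice with most Ucp1 was chosen after seeing the data. Coordinates follow GENCODE M21, whose positions equal the deposited ones for 193 of 205 complex I transcripts.

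Named with values were the mt-Nd genes, the core nuclear subunits, Ndufa4 and Ndufa4l2, up to 4 nuclear genes per direction with the smallest P in the first 3 comparisons, called genes, and the least abundant nuclear gene. The values of 1 member are not reported here, and it stays in the counts and medians. Members and lists were chosen with earlier results of these data known. The lncRNA table entered only library totals and the alternative with both tables.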

Additional observations from a re-analysis of the deposited data

Results flagged for a closer look

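In 120 checks of a named gene in a group of 4 mice, 2 found a mouse whose gap to its nearest neighbour was past Dixon's 95% critical value as a share of the group's range. Chance flags about 1 in 20 groups. Ndufs8 was at 58.8 CPM in control mouse 2 and 45.6 to 47 CPM in the other controls. Ndufa1 was at 28.2 CPM in HFD mouse 4 and 37.2 to 39.1 CPM in the other HFD mice. The high Ndufaf4 values of HFD + metformin mice 1 and 4 did not meet this criterion, since 2 mice were high. No gene differed between the HFD + RSV and HFD + metformin groups at an adjusted P under 0.05 in edgeR.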

How the results depend on the processing

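Over 25 alternatives, the edgeR count of 0 complex I genes called was kept for the mitochondrial genes in each of the 6 comparisons and for the nuclear genes in HFD + RSV against HFD. For the nuclear genes, DESeq2 called 2 in HFD against control (Ndufaf5, Ndufa13), 1 in HFD + RSV against control (Ndufc1) and 1 in HFD + metformin against control (Ndufaf4). In these 3 comparisons DESeq2 put 25.8%, 17.2% and 10.2% of all genes at an unadjusted P under 0.05. Of the nuclear genes, 4, 2 and 2 were higher and 0, 0 and 1 lower at that threshold. The fit to the 2 groups alone called 2 in HFD against control, where 28.2% of all genes were at an unadjusted P under 0.05. The share of all genes called is not given here for any alternative, so no count of called members is set beside it. With an unadjusted P under 0.05 and an absolute log2FC above 1, Ndufaf4 made the count 1 in HFD + metformin against HFD, against control and in HFD + RSV against HFD + metformin. Leaving out single mice gave 0 to 2 called nuclear genes in HFD against control (1 without HFD + metformin mouse 2, 2 without HFD + metformin mouse 3), 0 to 1 in HFD + RSV against control and 0 to 1 in HFD + metformin against control (both 1 without HFD + metformin mouse 3). That mouse is in neither group of the first 2 of these comparisons. For transcripts, DESeq2 called 1 in HFD against control (Ndufa13), 1 in HFD + metformin against HFD (Ndufaf4), 2 in HFD + RSV against control (Ndufa3, Ndufc1), and the same Ndufaf4 transcript, ENSMUST00000146721, in HFD + metformin against control and in HFD + RSV against HFD + metformin. The cause of these differences was not tested. Median log2FC moved by less than the spread between mice. Without 1 mouse it ranged from 0.05 to 0.13 over the nuclear genes in HFD against control, −0.07 to 0.07 in HFD + RSV against HFD and −0.23 to −0.03 in HFD + metformin against HFD. Over the mitochondrial genes it ranged from −0.11 to 0.19, −0.10 to 0.20 and −0.18 to 0.16. Without the 2 mice with most Ucp1 no complex I gene was called. No paired analysis was made. Some leading numbers in the mouse names recur in control and HFD + RSV, or in HFD + metformin and HFD + RSV. What these numbers mean is not stated. With 4 mice per group, nuclear log2FC had a median SE of 0.14 and mitochondrial log2FC of 0.25. Differences of over 3 SE, as in Ndufaf5 and Ndufa13, still missed the adjusted threshold.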

Other observations

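HFD mouse 4, with the lowest mt-Nd1 value (1200.1 CPM), had the highest value of the 16 mice for the mitochondrial ribosomal RNA mt-Rnr2 (837 CPM, against 71.3 to 531 CPM in the others). Ribosomal RNA was depleted before sequencing, so this value is what remained. Of the 6 other mitochondrially encoded mRNAs, 5 were lowest in this mouse, the exception being mt-Atp8, which was lowest in HFD + metformin mouse 1. All mitochondrial genes together held 2.33% of the mRNA counts in HFD mouse 4 and 3.31% to 5.7% in the others.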
